A study of Mus musculus with 12 samples.

Results

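The endothelin and angiotensin systems were followed through 8 listed genes of the 56350 in the deposited table. They are the ligand genes Edn1, Edn3 and Agt, the converting enzyme genes Ece1 and Ace, and the receptor genes Ednra, Ednrb and Agtr1a. The genes were listed by name. All 8 reached the minimum for testing, which was a value of 10 or more in 3 or more of the 12 libraries.

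The libraries were made from polyadenylated RNA of the apex of the left ventricle of mice, taken 8 weeks after surgery. Transverse aortic constriction (TAC) narrows the aortic arch and loads the left ventricle with pressure, and sham surgery leaves the aorta open. Control and knockout mice each had sham surgery or TAC, which gave 4 groups of 3 libraries. Knockout mice lacked lincRNA-p21, a p53-induced long noncoding RNA encoded by Trp53cor1, in the whole body. The controls were their littermates, which the labels give as heterozygous for lincRNA-p21, so a comparison of genotypes sets no copy against 1 remaining copy and not against the wild type. The labels do not say whether a library came from 1 animal or from several, so p-values measure the spread between these samples, which may be in part technical. Strain and age were not given in the sources used here.

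Both systems make a vasoconstrictor peptide from a larger precursor and signal through receptors that couple mainly to Gq proteins. Endothelin precursors are cut by furin-like proteases and then by the endothelin-converting enzyme, and the peptide acts on the type A receptor of muscle cells or the type B receptor of endothelial and other cells. Angiotensinogen is cut by renin to angiotensin I, which angiotensin-converting enzyme trims to angiotensin II, the ligand of the type 1 receptor. In the heart both peptides are known to promote growth of cardiomyocytes and deposition of matrix.

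The coding stretches of the active peptides are shown because the results below separate the endothelin genes Edn1 and Edn3, whose peptides are close relatives. They come from GENCODE M21 transcripts on GRCm38, in exon 2 of each gene. The Edn1 stretch is at chr13:42303649-42303711 (plus strand), the Edn3 stretch at chr2:174761749-174761811 (plus strand) and the angiotensin I stretch of Agt at chr8:124564450-124564479 (minus strand). Capitals mark the bases that differ between Edn1 and Edn3.
Edn1: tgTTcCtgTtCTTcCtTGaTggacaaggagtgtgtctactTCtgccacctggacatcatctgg
Edn3: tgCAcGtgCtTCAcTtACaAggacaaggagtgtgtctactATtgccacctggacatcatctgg
Agt: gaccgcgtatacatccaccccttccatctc
The endothelin stretches were the same at 50 of 63 bases (79.4%), and translated they were the same at 15 of 21 residues (71.4%). The differences lay mostly in the first part of the peptide, and the last part was the same in both.

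Promoter sequences of Edn3, Agt and Ace are shown because these are the genes whose RNA differed most between groups. They are RefSeq sequences on GRCm38.p6, from 250 bases before to 50 after the start. RefSeq promoters were matched for 7 of the 8 genes. Capitals mark a match to the TATA box letters TATAAA on either strand. The Edn3 promoter is at chr2:174760369-174760668 (plus strand), that of Agt at chr8:124569657-124569956 (minus strand) and the first of the Ace starts at chr11:105967698-105967997 (plus strand).
Edn3: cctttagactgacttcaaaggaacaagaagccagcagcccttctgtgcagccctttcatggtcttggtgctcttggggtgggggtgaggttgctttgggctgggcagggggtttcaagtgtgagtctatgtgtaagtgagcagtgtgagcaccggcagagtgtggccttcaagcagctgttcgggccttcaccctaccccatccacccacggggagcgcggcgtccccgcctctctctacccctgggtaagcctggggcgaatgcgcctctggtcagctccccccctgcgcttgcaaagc
Agt: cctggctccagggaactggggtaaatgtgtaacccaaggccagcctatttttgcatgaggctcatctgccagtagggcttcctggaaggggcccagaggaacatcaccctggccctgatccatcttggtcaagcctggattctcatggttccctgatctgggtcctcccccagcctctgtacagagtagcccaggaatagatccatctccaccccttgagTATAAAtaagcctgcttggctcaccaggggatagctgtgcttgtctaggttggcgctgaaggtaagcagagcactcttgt
Ace: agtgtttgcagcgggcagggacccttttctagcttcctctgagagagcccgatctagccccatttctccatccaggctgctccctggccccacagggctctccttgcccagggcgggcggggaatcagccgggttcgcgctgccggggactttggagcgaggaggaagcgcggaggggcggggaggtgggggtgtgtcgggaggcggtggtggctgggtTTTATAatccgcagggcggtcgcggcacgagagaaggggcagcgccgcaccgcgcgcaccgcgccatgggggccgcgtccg
Agt held TATAAA with its first base at −30 from the start, and Ace held it on the other strand at −31. Of 32851 promoters of the same length 13.6% held it. Edn3 held no match. The letters AGATAA of GATA factors, held by 11.2% of promoters, were found only in that of Edn1, 8 bases after the start on the minus strand. No promoter of the 7 genes held the AP-1 letters TGANTCA (7.81% of all promoters), the NFAT letters TGGAAA (21.4%) or a CArG box (1.63%). Such matches are letters in a window and no evidence of binding.

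Each library held between 10323605 and 13238934 assigned reads, and values are normalised read counts, which are reads divided by 1 size factor per library. Trp53cor1 had 11 reads over the 6 control libraries (4 of which had a read, 0.158 CPM, or counts scaled to library size) and 0 of 72710005 reads over the 6 knockout libraries. By counting error alone, 0 reads there (at most 3 counts) limit the level to 0.0413 CPM. Control sham replicate 3 stood apart from the others on the second principal component (−46.8, against −15.6 to 33.7) and had the lowest share of mitochondrial reads (12.5%, against up to 19.99%). The size of the TAC effect in controls also moved with transcript length (Spearman's rank correlation 0.409 across 13906 genes) and GC content (−0.437), as did the genotype difference after TAC (−0.473 and 0.164). Genes are not independent replicates, so these carry no p. Cardiomyocyte markers summed to between 533225 and 720700 in every library, and none of the 8 was at 0 in all libraries.

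Control TAC was set against control sham to ask how these genes responded to load in mice with a copy of lincRNA-p21. Of the 8 genes, Edn3 and Ace rose, Agt and Ece1 fell, and Edn1 and the receptor genes Ednra, Ednrb and Agtr1a did not pass the test. The test was limma-trend on log2(value + 1) with Benjamini-Hochberg adjustment at 0.05 over 13916 genes. It called 21.6% of all genes in this comparison, 11% higher and 10.6% lower. The numbers were 1533 higher and 1473 lower, against 537 and 836 after the trend with length and GC content was removed. The median change of the 8 genes was 0.18 on the log2 scale, against 0.01 over all genes tested. The 2 genes that rose and the 2 that fell kept their calls after that trend was removed, where Agt had a change of −1.09 (adjusted p = 0.045).

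**Figure D1:**
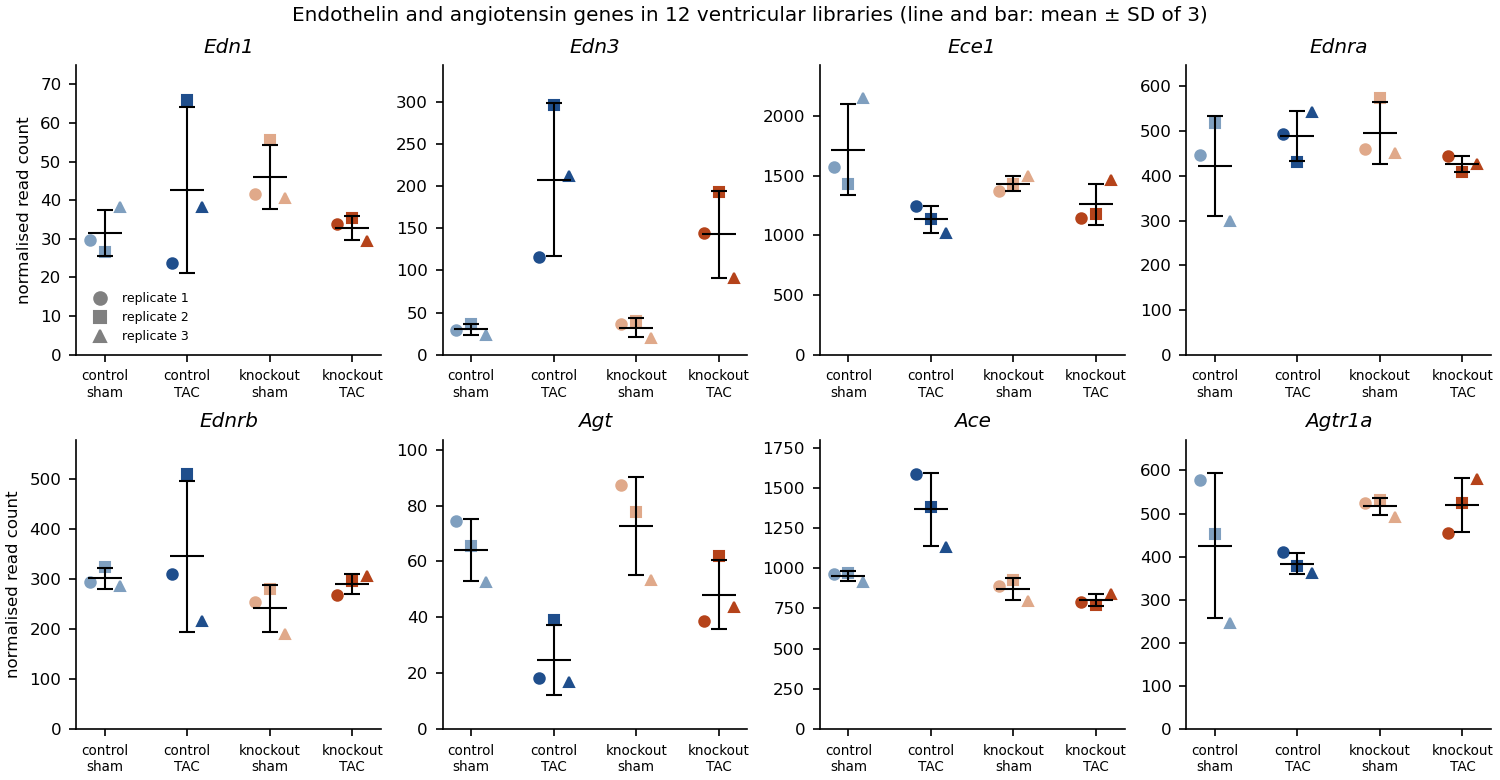
Normalised read count (vertical axis, from 0) of each gene in each of the 12 libraries, by group on the horizontal axis. Points are libraries, shaped by replicate number, and lines with bars are mean ± SD (n = 3). All TAC libraries of Edn3 lie above all sham libraries in both genotypes, and the 3 highest values of Ace are those of control TAC, 1131 to 1589, against 769 to 970.3 in the other groups.

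Among the ligands, Edn3 (ENSMUSG00000027524.9, chromosome 2, 174760619 to 174784042, plus strand) encodes endothelin 3, which is best known from the development of neural crest cells. In control sham libraries it stood at 29.8, 37.0 and 23.7, and in control TAC libraries at 116, 297 and 212. Every control TAC library was above every control sham library, and the TAC libraries spread more widely. Mean levels were 30.2 ± 6.65 and 208 ± 90.5 (SD, n = 3), a 6.34-fold difference on the log2(value + 1) scale (2.66 ± 0.36, SE, limma-trend adjusted p = 0.000299). The pseudocount of 1 makes such folds slightly too small for genes at this level. By p it was gene 66 of 13916.

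In knockouts Edn3 went from 36.6, 40.1 and 19.9 after sham to 145, 193 and 90.5 after TAC. Here too every TAC library was above every sham library, and the lowest TAC value was above the highest sham value of either genotype, 40.1. The difference was 2.11 ± 0.36 (4.31-fold), with the second smallest p of all genes, but it did not pass over all genes (limma-trend adjusted p = 0.158). In that comparison the test called 0.00719% of genes, which is 1 gene, with 929 at an unadjusted p under 0.05. No gene of the 8 was among the called, and by the edgeR test the number was 0 as well. Over all genes DESeq2 called 23 there, voom with sample weights 843 and a fit of the 6 knockout libraries alone 32. Edn3 was the 1 gene of the 8 called in each of these (adjusted p = 0.0126 with the 6 knockout libraries alone). Of the 12 fits without 1 library, it passed only without knockout TAC replicate 3 (2.40, 0.0382) and without control TAC replicate 1 (0.0294). In these 12 fits the change of Edn3 ran from 1.80 to 2.40, with a limma-trend adjusted p of up to 0.994. The effects in the 2 genotypes differed by −0.56 ± 0.50, which did not pass (adjusted p = 0.619). Averaged over both genotypes TAC raised Edn3 by 2.39 ± 0.25 (adjusted p = 5.05e-05).

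Edn1 (ENSMUSG00000021367.8, chromosome 13, 42301476 to 42307990, plus strand), which encodes endothelin 1, the main endothelin of blood vessels, was measured with few reads, between 22 and 64 per library. Its values were 29.8, 26.6 and 38.2 in control sham and 23.8, 65.9 and 38.2 in control TAC. The control TAC range took in the whole control sham range, and the difference was 0.32 ± 0.32 (adjusted p = 0.508). Without control TAC replicate 2, the highest library, it was −0.04. In knockouts Edn1 was at 41.7, 55.7 and 40.7 after sham and 33.8, 35.5 and 29.4 after TAC, without overlap but with a difference of −0.46 ± 0.32 that did not pass (adjusted p = 0.832). At these read numbers a change of Edn1 by the size of its SE, or well above it, could miss the test, so Edn1 is not shown to be unchanged.

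Per length the order of the endothelins differed between surgeries. Edn3 had 0.523 ± 0.200 times as many reads per kilobase as Edn1 in control sham libraries and 2.58 ± 0.27 times as many in control TAC libraries. In knockouts the ratio was 0.362 ± 0.102 after sham and 2.22 ± 0.61 after TAC. The highest ratio in a sham library was 0.724 and the lowest in a TAC library 1.60. This ratio was chosen after the values were seen and is a description.

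Agt (ENSMUSG00000031980.9, chromosome 8, 124556534 to 124569706, minus strand) encodes angiotensinogen, the precursor of all angiotensins, which is made mainly in the liver and at a low level in the heart. It stood at 74.6, 65.5 and 52.6 in control sham and at 18.4, 39.1 and 16.8 in control TAC. The groups did not overlap, and control TAC replicate 2 was the highest of its group. The difference was −1.43 ± 0.32, a 2.69-fold lower level (limma-trend adjusted p = 0.00589). In knockouts it was at 87.5, 77.5 and 53.4 after sham and 38.6, 62.1 and 43.6 after TAC. Those groups overlapped, and the difference of −0.59 ± 0.32 did not pass (adjusted p = 0.751). The effects of TAC differed between genotypes by 0.84 ± 0.45 (adjusted p = 0.364), and their mean was −1.01 ± 0.23 (adjusted p = 0.00919). In this mean of both genotypes 3 of the 8 genes passed, Edn3 higher and Agt and Ece1 lower, where the test called 14.4% of all genes, 6.69% higher and 7.74% lower.

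Of the converting enzymes, Ece1 (ENSMUSG00000057530.14, chromosome 4, 137862237 to 137965229, plus strand) releases mature endothelins and is abundant in endothelial cells. Its values were 1575, 1435 and 2150.2 in control sham and 1248, 1134 and 1022 in control TAC. No control TAC library reached the lowest control sham library, and the high sham value belonged to replicate 3, the library that stood apart. The difference was −0.58 ± 0.15, a 1.5-fold lower level (adjusted p = 0.0140). The call did not hold without control TAC replicate 3 (−0.51, adjusted p = 0.0535), nor when the 6 control libraries were fitted alone (0.0614), while without control sham replicate 3 the change was −0.41 and passed. In knockouts Ece1 was at 1373, 1434 and 1498 after sham and 1143, 1177 and 1461 after TAC, which overlapped (−0.20 ± 0.15, adjusted p = 0.852). The mean over both genotypes was −0.39 ± 0.11 (adjusted p = 0.0258) and passed in 5 of 12 fits that each left out 1 library.

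Of 15 endothelial markers 1 passed in the same comparison, where 21.6% of all genes did. It was the transcription factor gene Sox18, which fell (−0.95 ± 0.20, adjusted p = 0.00392). The median of the 15 was −0.42, against 0.01 over all genes, and 0 of them had a change above 0. Their summed level ran from 19413 to 30590.4 in control sham and from 17104 to 18556 in control TAC, and none of the 15 was at 0 in all libraries. Eng, which encodes the endothelial receptor endoglin, had the pattern most like that of Ece1 over the 12 libraries (Pearson's r = 0.978). In such bulk samples fewer cells of a type and less RNA per cell cannot be told apart, and the part of endothelial content in the Ece1 result was not tested.

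Ace (ENSMUSG00000020681.14, chromosome 11, 105967945 to 105989964, plus strand) encodes angiotensin-converting enzyme, which in most tissues sits on endothelial cells. In control sham it was at 964, 970.3 and 915, a narrow range, and in control TAC at 1589, 1378 and 1131. All control TAC libraries were above all control sham libraries, and the difference was 0.51 ± 0.13, a 1.42-fold higher level (adjusted p = 0.0126). The call was lost without control TAC replicate 1 (0.39, adjusted p = 0.0721) and when the 6 control libraries were fitted alone (0.0652). In knockouts Ace was at 890.1, 928 and 798 after sham and 789.9, 769 and 841 after TAC. Those groups overlapped, and the difference was −0.12 ± 0.13 (adjusted p = 0.900). The endothelial marker sums in control sham and control TAC are given above, and their part in the Ace result was not tested.

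Receptor genes passed in no comparison. Ednra (ENSMUSG00000031616.7, chromosome 8, 77663031 to 77724464, minus strand), the type A endothelin receptor of muscle cells, was at 447, 517 and 298 in control sham and 494, 432 and 543 in control TAC (0.25 ± 0.18, adjusted p = 0.334). After sham in knockouts it was at 459.8, 575 and 451, and after TAC at 445, 408 and 428, just below (−0.21 ± 0.18, adjusted p = 0.869). Ednrb (ENSMUSG00000022122.15, chromosome 14, 103814625 to 103844402, minus strand), the type B receptor that binds endothelin 1 and endothelin 3 alike, was at 294, 325 and 286 in control sham and 310.4, 511 and 215 in control TAC. The control TAC libraries lay on both sides of the sham libraries (0.11 ± 0.23, adjusted p = 0.777). In knockouts Ednrb ran from 190.0 to 281 after sham and from 268 to 306 after TAC (0.28 ± 0.23, adjusted p = 0.858).

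Agtr1a (ENSMUSG00000049115.15, chromosome 13, 30336441 to 30382867, plus strand) encodes the main type 1 angiotensin II receptor of the mouse. It was at 579, 452 and 246 in control sham and 409.9, 379 and 362 in control TAC, so that the sham range took in the TAC range (−0.06 ± 0.22, adjusted p = 0.863). The lowest value was that of control sham replicate 3. Without that library the change was −0.42 and passed (adjusted p = 0.0481), and without control sham replicate 1 it was 0.20. In knockouts Agtr1a was between 493 and 531 after sham and between 454 and 579 after TAC (0.00065 ± 0.22, adjusted p = 0.999). For the receptors the SE of a difference between groups was 0.18 to 0.23 on the log2 scale. Differences well above the SE could also miss the test with these 12 libraries. In knockouts Edn3 missed it at 2.11 ± 0.36 (limma-trend adjusted p = 0.158). A receptor gene that did not pass is therefore not shown to be unchanged.

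**Figure D2:**
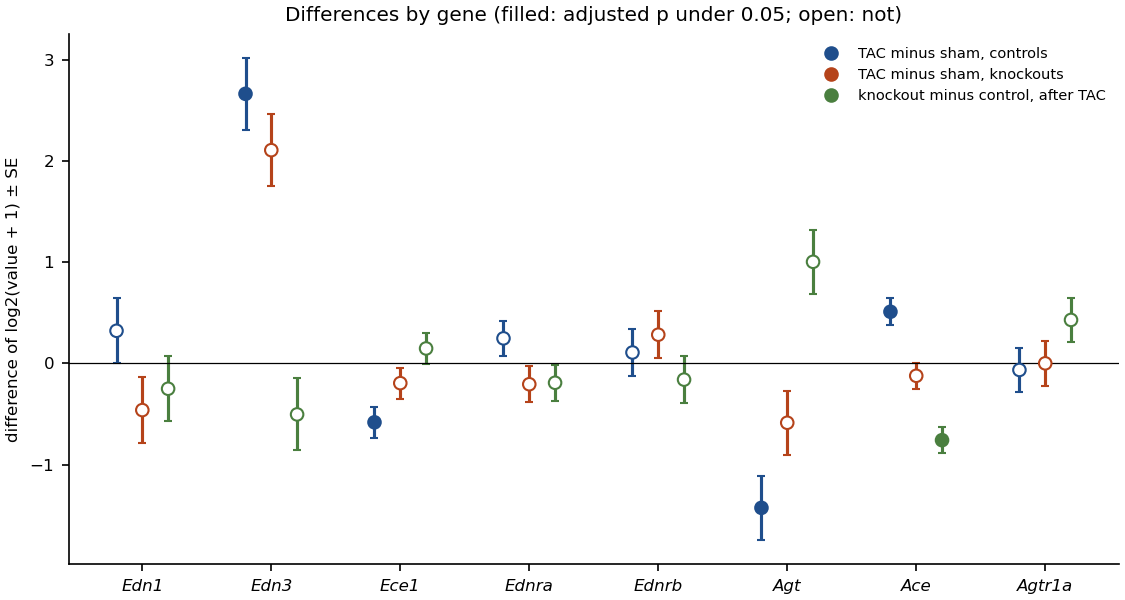
Difference of log2(value + 1) ± SE for each gene (vertical axis) in 3 comparisons, with filled points for an adjusted p under 0.05 and open points for the rest. Edn3 has the highest points for TAC in both genotypes (2.66 and 2.11), and Ace has a filled point above 0 for TAC in controls and a filled point below 0 for knockout against control after TAC.

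The comparison of knockouts with controls asks what the loss of lincRNA-p21 did to these genes, without and with overload. After sham 0 of the 8 genes passed by limma-trend, 0 had an unadjusted p under 0.05, and 0 passed by edgeR or DESeq2. The test called 0% of all genes there, where 604 had an unadjusted p under 0.05. Edn1 had the greatest difference, 0.53 ± 0.32 (46.0 ± 8.35 in knockouts and 31.5 ± 5.97 in controls, adjusted p = 0.934). Its lowest knockout library, 40.7, was above its highest control library, 38.2. Ednrb libraries did not overlap either, at 190.0 to 281 in knockouts and 285.7 to 324.7 in controls. The share of all genes without overlap was not counted, so statements on overlap, here and in the other comparisons, are descriptions.

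After TAC, 1 of the 8 genes passed, Ace, which was lower in knockouts. The test called 8.23% of all genes, 4.13% lower, with 570 higher and 575 lower, against 310 and 197 after the length and GC trend was removed. The number called was 202 to 348 without any 1 of knockout TAC replicates 1 and 2 and control TAC replicates 1 and 2, and 1945 and 2143 without knockout TAC replicate 3 and control sham replicate 3. Ace stood at 799.8 ± 37.1 in knockout TAC and 1366 ± 229 in control TAC, with no overlap (−0.76 ± 0.13, a 1.69-fold lower level, adjusted p = 0.00481). It passed in each of the 12 fits without 1 library, with a highest adjusted p of 0.0313, and after the trend was removed (−0.64, 0.00862). Agt was 2.01-fold higher in knockout TAC than in control TAC, at 48.1 ± 12.4 and 24.8 ± 12.5, but the groups overlapped and it did not pass (1.00 ± 0.32, adjusted p = 0.0604). Of the 12 fits without 1 library, Agt passed only without control sham replicate 3 (0.0402) and without control TAC replicate 2 (1.37, 0.0390). In these fits its difference ran from 0.79 to 1.37, with a limma-trend adjusted p of up to 0.254. Agtr1a was at 519 ± 62.8 against 384 ± 24.4, without overlap, and did not pass (0.43 ± 0.22, adjusted p = 0.243). Of the 12 fits it passed only without control sham replicate 3 (0.0272). Its difference there ran from 0.35 to 0.52, with a limma-trend adjusted p of up to 0.434. Edn3 was at 143 ± 51.3 against 208 ± 90.5, with overlap, and did not pass (−0.50 ± 0.36, adjusted p = 0.403), and Ece1, Edn1, Ednra and Ednrb had differences between −0.25 and 0.15 that did not pass.

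Markers of cell types were also compared between genotypes after TAC, where 8.23% of all genes were called, 4.13% lower. Of all 13916 genes 3477 had an unadjusted p under 0.05. Of 15 endothelial markers 0 passed by limma-trend (2 had an unadjusted p under 0.05), with a median of 0.18 and sums of 18935 to 21094 in knockout TAC and 17104 to 18556 in control TAC. Of 10 fibroblast markers 4 were lower in knockouts, with a median of −0.34 and sums of 22004 to 28419.9 against 28549 to 29972. Of 3 tested endocardial markers Npr3 was lower, with a median of −0.41 and overlapping sums of 828 to 1181 and 960.3 to 1940.1. Of 6 atrial markers 4 were lower and 1 higher, with a median of −2.17 and sums of 1527 to 2227 against 3036 to 6334. Of 8 tested mesothelial markers 2 were higher, with a median of 2.16 and sums of 205 to 436 against 118 to 229.7. Of 8 cardiomyocyte markers 3 were higher and 2 lower, and 0 of the smooth muscle and pericyte, macrophage, mast cell or Schwann cell markers passed by limma-trend (5, 0, 2 and 1 had an unadjusted p under 0.05). The part of these cell types in the Ace result was not tested.

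The difference between genotypes in the TAC effect was tested directly. Of the 8 genes 0 passed by limma-trend and 0 by edgeR, where 0.309% of all genes were called. The called genes numbered 2 higher and 41 lower, against 4 and 19 after the length and GC trend was removed. Ace was the 1 gene of the 8 with an unadjusted p under 0.05, which 2292 of all 13916 genes had. Its difference was −0.63 ± 0.19 (limma-trend adjusted p = 0.123). Ace passed by DESeq2 (−0.65, adjusted p = 0.0222), which called 480 of the 6901 genes it gave an adjusted p. It also passed by voom with sample weights (−0.68, adjusted p = 0.0108), which called 1573 of 13916. In the 12 fits without 1 library it ran from −0.76 to −0.52 and passed in none. That Ace rose with TAC in controls and did not pass in knockouts is therefore a difference that the main test did not call.

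Levels were compared between genes as reads per kilobase of exon and library size (RPKM). In control sham the order from high to low was Ece1 (29.0 ± 8.85), Ace (15.8 ± 0.74), Agtr1a (13.2 ± 4.50), Ednra (6.70 ± 1.37), Ednrb (6.23 ± 0.37), Agt (2.97 ± 0.32), Edn1 (1.31 ± 0.36) and Edn3 (0.642 ± 0.105). The libraries of Ace and Agtr1a overlapped, as did those of Ednra and Ednrb, so these neighbours did not differ beyond their spread. In control TAC the order was Ace (22.7 ± 3.98), Ece1 (18.8 ± 2.05), Agtr1a (12.1 ± 0.94), Ednra (7.86 ± 1.08), Ednrb (7.05 ± 2.87), Edn3 (4.40 ± 1.81), Edn1 (1.73 ± 0.82) and Agt (1.14 ± 0.54). There the libraries of Ace and Ece1 overlapped, as did those of Ednra and Ednrb, and each neighbouring pair from Ednrb down to Agt. In knockout sham the order was Ece1 (22.7 ± 1.70), Agtr1a (15.5 ± 0.22), Ace (13.8 ± 0.71), Ednra (7.58 ± 0.98), Ednrb (4.73 ± 0.80), Agt (3.21 ± 0.69), Edn1 (1.80 ± 0.31) and Edn3 (0.653 ± 0.205), with no overlap between neighbours. In knockout TAC the order began with Ece1 (19.6 ± 3.01), Agtr1a (15.3 ± 2.06), Ace (12.4 ± 0.74), Ednra (6.41 ± 0.27) and Ednrb (5.60 ± 0.45) and ended with Edn3 (2.85 ± 1.00), Agt (2.09 ± 0.53) and Edn1 (1.26 ± 0.11). Agtr1a and Ace overlapped there, as did Edn3 and Agt. Thus Edn3 was the lowest of the 8 after sham in both genotypes and above Edn1 after TAC in both.

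**Figure D3:**
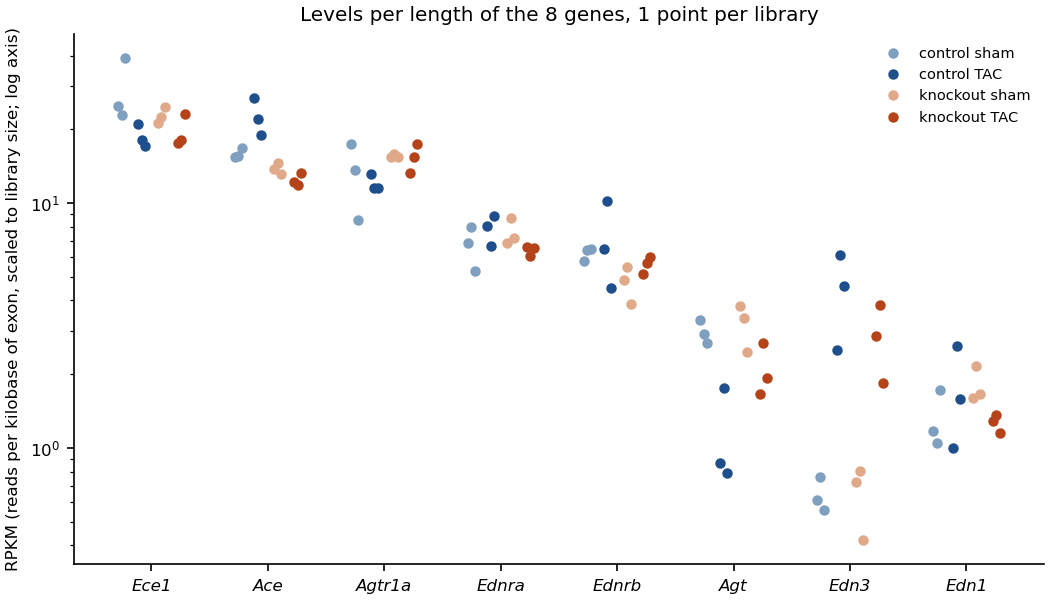
RPKM (vertical log axis) of the 8 genes, 1 point per library, coloured by group. By group mean the converting enzymes Ece1 and Ace and the receptor gene Agtr1a are highest and the ligand genes lowest, with some overlap of single libraries, and Edn3 alone has its TAC libraries (1.84 to 6.12) wholly above its sham libraries (0.420 to 0.808) in both genotypes.

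Other genes of both pathways came from lists that were chosen, like the 8 genes, with earlier results of these data known. Of 5 further endothelin genes only Mme, which encodes neprilysin, a protease that degrades endothelins, passed the filter on low values. Mme was at 88.6 ± 51.6 in control sham and 99.9 ± 29.7 in control TAC and passed in no comparison. The third endothelin gene Edn2 had 1 read in all 12 libraries and the converting enzyme gene Ece2 had 35. Of 28 further renin-angiotensin genes 20 were tested. The renin gene Ren1 had 1 read in all libraries, Agtr2, the type 2 receptor gene, had 1, and Agtr1b, the second type 1 receptor gene, and the aldosterone synthase gene Cyp11b2 were at 0. A count of 0 allows up to 3 counts over the 12 libraries, for counting error only. Transcripts of the upstream protease renin were thus close to the limit of detection in these ventricles.

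Of the 20 genes 5 (3 higher and 2 lower) passed for TAC in controls, a share close to the 21.6% of all genes. Most genes of the list, and all 5, encode peptidases. The angiotensin IV receptor and aminopeptidase Lnpep rose (0.80 ± 0.19, adjusted p = 0.00790), as did the endopeptidases Nln (0.69 ± 0.21) and Prep (0.49 ± 0.16), while the aminopeptidase Rnpep (−0.53 ± 0.15) and the endopeptidase Thop1 (−0.49 ± 0.14) fell. All 5 lost the call when the length and GC trend was removed, Prep with a turned sign (−0.15), and when the 6 control libraries were fitted alone. Lnpep passed in each of the 12 fits without 1 library. Rnpep lost its call without control TAC replicate 2 or control sham replicate 3, Thop1 without control TAC replicate 3 or control sham replicate 2, Nln without control TAC replicate 1 or 2 or control sham replicate 3, and Prep in 8 of the 12. In knockouts, after sham, after TAC and in the difference of effects 0 of 20 passed by limma-trend. Over all genes 0.00719%, 0%, 8.23% and 0.309% were called there. The median change of the 20 with TAC in controls was −0.08, near that of all genes.

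Downstream of the receptors, 30 genes of Gq signalling and receptor regulation were all tested. With TAC in controls 8 rose and 1 fell, where 11% of all genes rose and 10.6% fell, and the median over the 30 was 0.08 against 0.01 over all genes. The kinase Grk5, which phosphorylates activated receptors, rose from 436 ± 48.0 to 819 ± 153 (0.90 ± 0.14, adjusted p = 0.000804). Arhgef12, an exchange factor for a small GTPase, rose by 0.83 ± 0.14, the phospholipase Plcb4 by 0.71 ± 0.14, the protein kinase gene Rock2 by 0.93 ± 0.18 and the protein kinase C gene Prkca by 0.88 ± 0.18. Rgs2, which speeds the shut-off of Gq, fell from 475 ± 75.2 to 213 ± 97.5 (−1.25 ± 0.26, adjusted p = 0.00473). Of these 6 named genes, Grk5 and Rgs2 kept the call after the length and GC trend was removed. In knockouts 0 of 30 passed, where 0.00719% of all genes, or 1 gene, did (median of the 30 −0.02). After TAC 6 of 30 were lower in knockouts than in controls and 0 higher, where 4.13% of all genes were lower, and the median was −0.24 against 0.01 over all genes. They were Arhgef12 (−0.77 ± 0.14), Grk5 (−0.76 ± 0.14), Grk3 (−0.96 ± 0.18), Plcb4 (−0.60 ± 0.14), Rock2 (−0.75 ± 0.18) and Itpr1 (−0.65 ± 0.18). After the trend was removed Grk3 alone of the 6 kept the call. Arhgef12, Grk5 and Grk3 passed in each of the 12 fits without 1 library. Plcb4, Rock2 and Itpr1 lost the call without control TAC replicate 2 or knockout TAC replicate 1 or 2, Plcb4 also without control TAC replicate 3, Rock2 and Itpr1 also without control TAC replicate 1, and Itpr1 also without any of the knockout sham libraries. In the difference of effects 0 of 30 passed, where 0.309% of all genes did.

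The last list held 20 genes known to be induced by endothelin 1 or angiotensin II, of which 19 were tested. Many of them also respond to load by other routes, and load responses in these data were known when the list was made, so their counts are a description and no independent evidence. With TAC in controls 12 of 19 rose and 0 fell, where 11% of all genes rose, with a median of 1.84 against 0.01 over all genes. The 6 with the smallest p were the stress-response gene Ankrd1 (2.53 ± 0.19), the fetal myosin gene Myh7 (3.5 ± 0.26), the matrix gene Postn (2.51 ± 0.23), the skeletal actin gene Acta1 (4.11 ± 0.37), the oxidase gene Nox4 (2.98 ± 0.46) and the natriuretic peptide gene Nppa (2.91 ± 0.42). In knockouts 0 of 19 passed, where 0.00719% of all genes, or 1 gene, did. The median of the 19 there was 0.58, with 18 of 19 above 0. After TAC 6 of 19 were lower in knockouts, where 4.13% of all genes were, among them Postn (−1.73 ± 0.23), Ankrd1 (−0.96 ± 0.19), Myh7 (−1.36 ± 0.26), Nox4 (−1.94 ± 0.46) and Timp1 (−1.43 ± 0.41), and the median was −0.96. Myh7 lost that call after the trend was removed. Postn and Myh7 passed in each of the 12 fits without 1 library. Ankrd1 did not pass without control TAC replicate 2 (adjusted p = 0.0510), nor Nox4 without control TAC replicate 1, control TAC replicate 2 or knockout TAC replicate 1, and Timp1 lost its call in 9 of the 12.

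**Figure D4:**
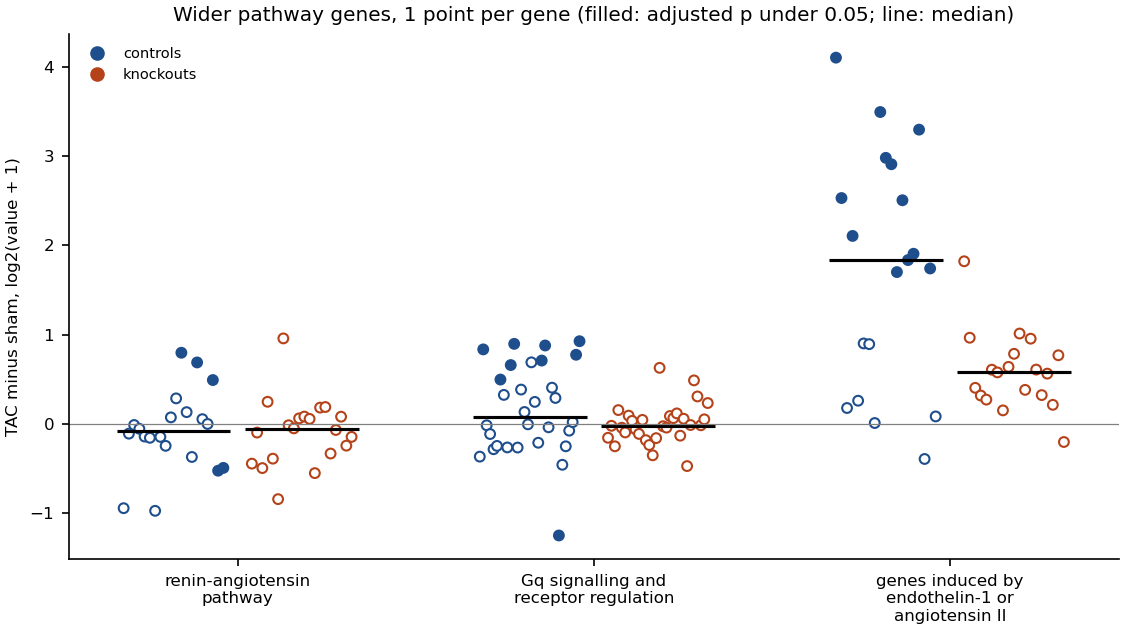
Difference of log2(value + 1) between TAC and sham (vertical axis) for the tested genes of 3 wider lists, 1 point per gene, in controls and in knockouts. Filled points have an adjusted p under 0.05 and lines are medians. The genes known to be induced by the peptides have a median of 1.84 in controls and 0.58 in knockouts, and the renin-angiotensin and Gq lists have medians near 0 in both.

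Correlations between the 8 genes over the 12 libraries ran from −0.83 to 0.50. Between Edn3 and Ece1 Pearson's r of log2(value + 1) was −0.83, between Agt and Ace −0.62, and between Edn3 and Agt −0.61, while Edn1 had no value beyond 0.22 with any other of the 8. These 12 points share group, library and depth, so the values are descriptions without a p. The genes most like Edn3 were Wdr75 (r = 0.977), Shisa3 (0.952) and Smc4 (0.948). For Ece1 they were Eng (0.978), Zfp219 (0.970) and Tcf7l1 (0.959), for Ace Ptgfrn (0.956), Tgfbr2 (0.950) and Kif3b (0.941), and for Agt Hnrnpa0 (0.939), Pold2 (0.932) and Mlf2 (0.926). For the receptors the nearest were Pak6 for Ednra (0.936), Dcun1d3 for Ednrb (0.884) and Lbh for Agtr1a (0.931), and for Edn1 it was Itpkc (0.867).

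Markers of other cell types were summed beside these results. In controls after TAC, where 11% of all genes rose and 10.6% fell, 5 of 8 tested mesothelial markers fell (sums of 236 to 565 in sham and 118 to 229.7 in TAC). Their median change was −3.14, with 1 of 8 above 0. Wt1 was most of the control TAC sum, with a mean of 104 of 170, against 97.3 of 430 in control sham. Means of Upk3b (135 to 11.1) and Msln (77.3 to 7.42) fell, and that of Krt18 rose (12.5 to 33.8). Of 10 fibroblast markers 2 rose and 1 fell (28465 to 35661 and 28549 to 29972), with a median of 0.28 and 6 of 10 above 0. Most of that sum was Gsn, with means of 20804 of 32016 in control sham and 15521 of 29085 in control TAC. Of 10 smooth muscle and pericyte markers 2 fell, Acta2 and Kcnj8 (17904 to 20367 and 16522 to 19697). Markers of Schwann cells, a neural crest derivative, summed to 111 to 202 in control sham and 59.7 to 136 in control TAC, and macrophage markers to 3004 to 3907 and 2385 to 3840.2, with overlapping ranges in both lists. Of 6 atrial markers, which include Nppa, 5 rose and 1 fell, and they summed to 649.9 to 1177 and 3036 to 6334. Nppa was most of the control TAC sum, with a mean of 3562 of 4274. The other atrial markers changed too, and the median change of the 6 was 2.75. From control sham to control TAC, means rose for Myl4 (31.7 to 182), Myl7 (12.7 to 141), Sln (1.24 to 45.0) and Dkk3 (41.7 to 189). The mean of Stard10 fell (390 to 155). The part of these cell types in the changes of Edn3, Agt, Ece1 and Ace was not tested. Overlap with other genes on GRCm38 was annotated for Edn1, Ednra, Ece1, Ace and Agtr1a. The overlapping gene held 506 reads over the 12 libraries for Ednra (4933431K23Rik) and between 3 and 17 for the others, and the strand setting of the counting was not given in the sources used here, so reads could not be split between such partners.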

How the data were processed

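The 12 libraries (4 groups of 3) of ventricular polyadenylated RNA were made with a stranded kit, per the labels' protocols. STAR, SAMtools, featureCounts and GRCm38.p6 are named in the submitters' processing notes, without versions, annotation or strand setting. The deposited values are a signal that the authors made by dividing reads by 1 size factor per library, as read from the values: 100% were whole multiples of 1 step within 0.01, so reads could be recovered. All 12 columns matched a sample. Of 56350 gene IDs 55480 matched GENCODE M21.

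The 13916 genes with 10 or more in 3 or more libraries were fitted with limma-trend (limma 3.58.1, R 4.3.3, robust) on log2(value + 1), with 4 group means, 6 contrasts and Benjamini-Hochberg adjustment at 0.05. Alternatives were edgeR 4.0.16 and DESeq2 1.42.0 on recovered reads, voom with sample weights, TMM scaling, pseudocounts of 0.5 and 5, other filters, a replicate block, the compared libraries alone, removal of the length and GC trend (loess, span 0.5) and leaving out each library. Libraries of 1 group differed by a chi-square of at least 5.32 per gene, so none was a copy. Python 3.11.15 and matplotlib 3.10.9 drew the plots.

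The members and lists were chosen with earlier results of these data known. Named were the 8 genes, up to 6 genes of a wider list per comparison by p among those that passed, genes of the 2 pathway lists under the filter, and for each of the 8 the genes with the highest correlation. Values of Mme and the ratio of Edn3 to Edn1 were chosen with their values known. A few results under this rule are not reported here.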

Additional observations from a re-analysis of the deposited data

Results flagged for a closer look

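The effect of TAC differed between genotypes for 2 genes of the list known to be induced by endothelin 1 or angiotensin II, by the test of the difference itself over 13916 genes. Myh7 had a difference of −2.86 ± 0.37 (limma-trend adjusted p = 0.00426), with a TAC effect of 3.5 in controls, and passed in each of the 12 fits without 1 library (highest adjusted p 0.0282). Ankrd1 had a difference of −1.57 ± 0.27 (adjusted p = 0.0196) and did not pass without control TAC replicate 2, knockout sham replicate 2 or knockout sham replicate 3, with adjusted p up to 0.0912.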

How the results depend on the processing

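Counts of called genes among the 8 stayed within 1.5 times the main count in 122 instances of a comparison and setting and moved further in 14. For TAC in controls the count was 2 with the compared libraries alone (main 4) and 3 to 5 without 1 library. In knockouts it was 1 by DESeq2, voom, without a filter and with the compared libraries alone (main 0), each time Edn3, and 0 to 1 without 1 library. For the mean of both it was 2 to 3 without 1 library. After TAC the genotype count was 2 by voom, Ace and Agt (main 1), and 1 to 3 without 1 library. For the difference of effects it was 1 by DESeq2 and voom, Ace (main 0). With the replicate block the count was 1 for TAC in knockouts (Edn3, adjusted p = 0.0082) and 2 after TAC (Agt, 0.0368). Same-numbered libraries of 2 groups had correlations of deviations of −0.067 to 0.158. Differently numbered libraries were not compared, so whether the replicate numbers pair the samples cannot be told from these values. The counts with the block therefore show no weaker or stronger effect.

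Reversals touched only differences that had not passed, with 2 exceptions, and their cause was not tested. With the length and GC trend removed, Ednrb for TAC in controls was −0.15, Agtr1a in knockouts −0.048 and Ednra in the mean −0.081, and the exceptions were Prep in controls (−0.15) and Lnpep in the mean (−0.020). By voom Agtr1a in knockouts was −0.093, Ednra in the mean −0.087 and Edn3 after sham −0.050. Without 1 library, TAC in controls ran from −0.045 to 0.67 for Edn1, −0.22 to 0.40 for Ednrb and −0.42 to 0.20 for Agtr1a, TAC in knockouts from −0.082 to 0.093 for Agtr1a, and the mean from −0.25 to 0.10 for Edn1, −0.094 to 0.10 for Ednra and −0.21 to 0.10 for Agtr1a. The genotype difference ran from −0.13 to 0.36 for Edn3 after sham, and after TAC from −0.60 to 0.12 for Edn1 and −0.45 to 0.17 for Ednrb. The difference of effects ran from −0.12 to 0.50 for Ednrb and −0.20 to 0.42 for Agtr1a.

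Over all genes edgeR called 3002, 1, 2042, 0, 1228 and 40 for TAC in controls, in knockouts, in the mean, genotype after sham, after TAC and the difference (main 3006, 1, 2008, 0, 1145 and 43). In knockouts DESeq2 called 23, voom 843, the block 3 and the compared libraries alone 32. For the difference DESeq2 called 480, voom 1573 and no filter 124. Voom called 3377 for the mean and 3812 after TAC, and DESeq2 1 after sham. The compared libraries alone gave 1433 in controls. With the trend removed 1373, 1011, 507 and 23 were called in controls, in the mean, after TAC and for the difference. Without 1 library the ranges were 1549 (control TAC replicate 2) to 3656 in controls, 0 to 7 in knockouts, 1022 (knockout sham replicate 1) to 2843 in the mean, 202 to 2143 after TAC and 8 (control TAC replicate 2) to 755 (control sham replicate 1) for the difference. No setting with another pseudocount or TMM scaling changed a count of the 8. Read numbers limit Edn1 and Agt, with as few as 22 and 17 reads in a library.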
